A study of Homo sapiens with 18 samples.

Results

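The genes described here are 34 genes of cholesterol and fatty acid synthesis, sterol transport and their control, taken from a fixed list of sterol-regulated genes. Each was found by exact match of its symbol, and all 34 were among the 40916 symbols counted in each of 18 RNA-seq libraries. The libraries came from 2 human epithelial cell lines. MCF10A is a non-transformed breast epithelial line, here expressing H2B-GFP, a fluorescent histone. HCT116, derived from a colorectal carcinoma, carried no fluorescent label. Each line was grown alone, and the lines were also grown together in cultures described as holding 50% of each. All 3 kinds of culture were either left non-irradiated (NIR) or given 10 Gy of ionizing radiation (IR), which gave 6 groups of 3 libraries. MCF10A was kept in F12:DMEM with horse serum, EGF, hydrocortisone, cholera toxin and insulin, and HCT116 in McCoy's 5A medium with fetal bovine serum, so that line and medium cannot be told apart. Which medium the mixed cultures had is not given in the sources used here. Harvest was at day 2 by the titles but at 72 h after irradiation by the study's description, and the counts do not settle which holds. The replicates are labelled as biological, without a record of separate passages or thaws, so p-values measure the spread between these libraries.

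Cells make cholesterol from acetyl-CoA through mevalonate, isoprenoids, squalene and a series of sterols, and they make fatty acids from the same acetyl-CoA. Both branches are controlled by the sterol regulatory element binding proteins, encoded by SREBF1 and SREBF2. When membrane sterol is low, the escort protein SCAP carries these precursors from the endoplasmic reticulum to the Golgi, where they are cut to active transcription factors. When sterol is high, the INSIG proteins hold SCAP back. Sterol derivatives also activate the liver X receptors (LXR), which raise the export pumps ABCA1 and ABCG1 and the ubiquitin ligase MYLIP. The 34 genes comprised 7 of the mevalonate and isoprenoid steps, 11 of the steps from squalene to sterols, 5 of SREBP control, 4 of sterol transport or LXR response, and 7 of fatty acid synthesis and desaturation.

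The upstream sequences of 5 genes that changed in irradiated HCT116 cultures are shown, because the best-known route by which these genes move together runs through short promoter motifs. STARD4, INSIG1 and SREBF2 were lower after irradiation and TM7SF2 and ABCA1 were higher. SCD, which was also lower, had its sequence extracted in the same way, but it is not shown. Each sequence is the 150 bases before the gene's start in RefSeq, build GRCh38.p14, on the gene's strand. Capitals mark TCACNCCAC (a sterol regulatory element core), CCAAT (the NF-Y motif, written ATTGG when it lies on the other strand) and CACGTG (an E-box).
STARD4 promoter, chr5:111512536-111512685 (-): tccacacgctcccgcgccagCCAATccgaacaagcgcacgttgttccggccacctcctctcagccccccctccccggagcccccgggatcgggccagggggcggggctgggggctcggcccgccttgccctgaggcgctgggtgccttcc
INSIG1 promoter, chr7:155297728-155297877 (+): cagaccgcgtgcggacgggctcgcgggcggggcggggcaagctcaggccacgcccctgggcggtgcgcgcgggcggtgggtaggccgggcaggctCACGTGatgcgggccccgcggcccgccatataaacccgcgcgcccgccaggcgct
SREBF2 promoter, chr22:41832955-41833104 (+): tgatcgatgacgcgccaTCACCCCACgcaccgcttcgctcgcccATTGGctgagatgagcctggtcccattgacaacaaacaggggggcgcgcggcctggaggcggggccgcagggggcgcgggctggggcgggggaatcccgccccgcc
TM7SF2 promoter, chr11:65111722-65111871 (+): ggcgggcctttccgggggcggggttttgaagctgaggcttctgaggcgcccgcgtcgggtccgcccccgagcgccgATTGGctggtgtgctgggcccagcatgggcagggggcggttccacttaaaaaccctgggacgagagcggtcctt
ABCA1 promoter, chr9:104928156-104928305 (-): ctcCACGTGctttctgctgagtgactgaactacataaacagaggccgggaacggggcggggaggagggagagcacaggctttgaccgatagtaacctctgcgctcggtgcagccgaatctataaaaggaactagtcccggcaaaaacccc

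In the window of SREBF2 the TCACNCCAC match began 133 bases before the start and an inverted CCAAT began 106 bases before it. STARD4 had CCAAT at 130, TM7SF2 an inverted CCAAT at 74, and INSIG1 and ABCA1 had CACGTG at 55 and 147. Outside the bases shown, STARD4 had a further CCAAT at 161 and INSIG1 an inverted CCAAT at 170. Both strands of the 250 bases before the start were searched in the 29 genes that had an entry. TCACNCCAC was in 1 of them (3.45%), SREBF2, against 1.09% of 27305 genes with an entry and 1.18% of the 11180 of these with a mean of at least 1 CPM. CCAAT was in 20 of the 29 (69%), against 37% of all genes and 41.4% of the expressed ones. CACGTG was in 4 (13.8%), against 7.73% and 10.9%. The Sp1 box GGGCGG was in 28 (96.6%), against 46.2% and 74%. These motifs do not overlap in letters, and a match describes the sequence alone. With 100 bases searched, the members' shares were 0%, 48.3%, 6.9% and 69%, against 0.474%, 26.5%, 6.12% and 59.3% of the expressed genes.

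The libraries held 25737818 to 40839835 counts, and levels are given as CPM, a gene's counts over the library total times 1e+06. CPM is not corrected for gene length, so levels are compared between groups and not between genes. Mitochondrially encoded genes took 5.1 to 5.32% of counts in MCF10A NIR, 6.06 to 6.35% in MCF10A IR, 8.42 to 8.75% in HCT116 NIR and 11.5 to 12.3% in HCT116 IR, and the part of this difference in the results was not tested beyond the fits without these genes. All 10 MCF10A markers were higher in MCF10A in both treatments and 6 of 10 HCT116 markers were higher in HCT116. The MCF10A markers summed to 10681 to 11512 CPM in MCF10A NIR and 17804 to 18118 CPM in MCF10A IR, against 340.6 to 439.9 and 565.5 to 628.7 CPM in HCT116 NIR and IR. The intestinal markers CDX1 and ASCL2 had no counts in the HCT116 monocultures. CDKN1A, an inhibitor of the cell cycle, rose from 317.8 ± 39.3 to 1593 ± 90.2 CPM (SD, n = 3 each) in HCT116.

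The mixed libraries were nearly all HCT116 RNA. From genes seen in a single line, MCF10A RNA was estimated at 0.503%, 0.438% and 0.399% of the 3 mixed NIR libraries (mean 0.447% ± 0.0528, SD, n = 3). It was 1.29%, 1.17% and 1.27% of the 3 mixed IR libraries (mean 1.24% ± 0.0662, SD, n = 3), against the 50% of cells described. The estimate is a median over these genes and takes each to have the same level in mixed culture as alone. The SD covers libraries and not the spread between genes. For example, KRT5 had a mean of 2883 CPM in MCF10A NIR and 0.724 CPM in mixed NIR. TP63 had 109 and 0.88 CPM. The sources used here name no sorting of the mixed cells before RNA extraction and do not say that there was none. These are shares of RNA: in such bulk libraries fewer cells of a type and less RNA per cell cannot be told apart. The mixed cultures are therefore set beside HCT116 below.

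All 34 genes had enough counts for a test in each of 9 comparisons, and 27 of them had a mean of at least 10 CPM in every group. The exceptions were ABCA1, ABCG1, CYP51A1, EBP, FADS2, MYLIP and TM7SF2. Summed over the 34 genes, levels were 4564 to 4606 CPM in MCF10A NIR and 3840 to 4045 CPM in MCF10A IR. They were 3982 to 4181 CPM in HCT116 NIR and 3046 to 3161 CPM in HCT116 IR, and 3636 to 3759 CPM and 3007 to 3085 CPM in the mixed NIR and IR cultures. In each kind of culture every irradiated library was thus below every non-irradiated one in this sum, to which abundant genes such as SCD and FASN contribute most.

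**Figure D1:**
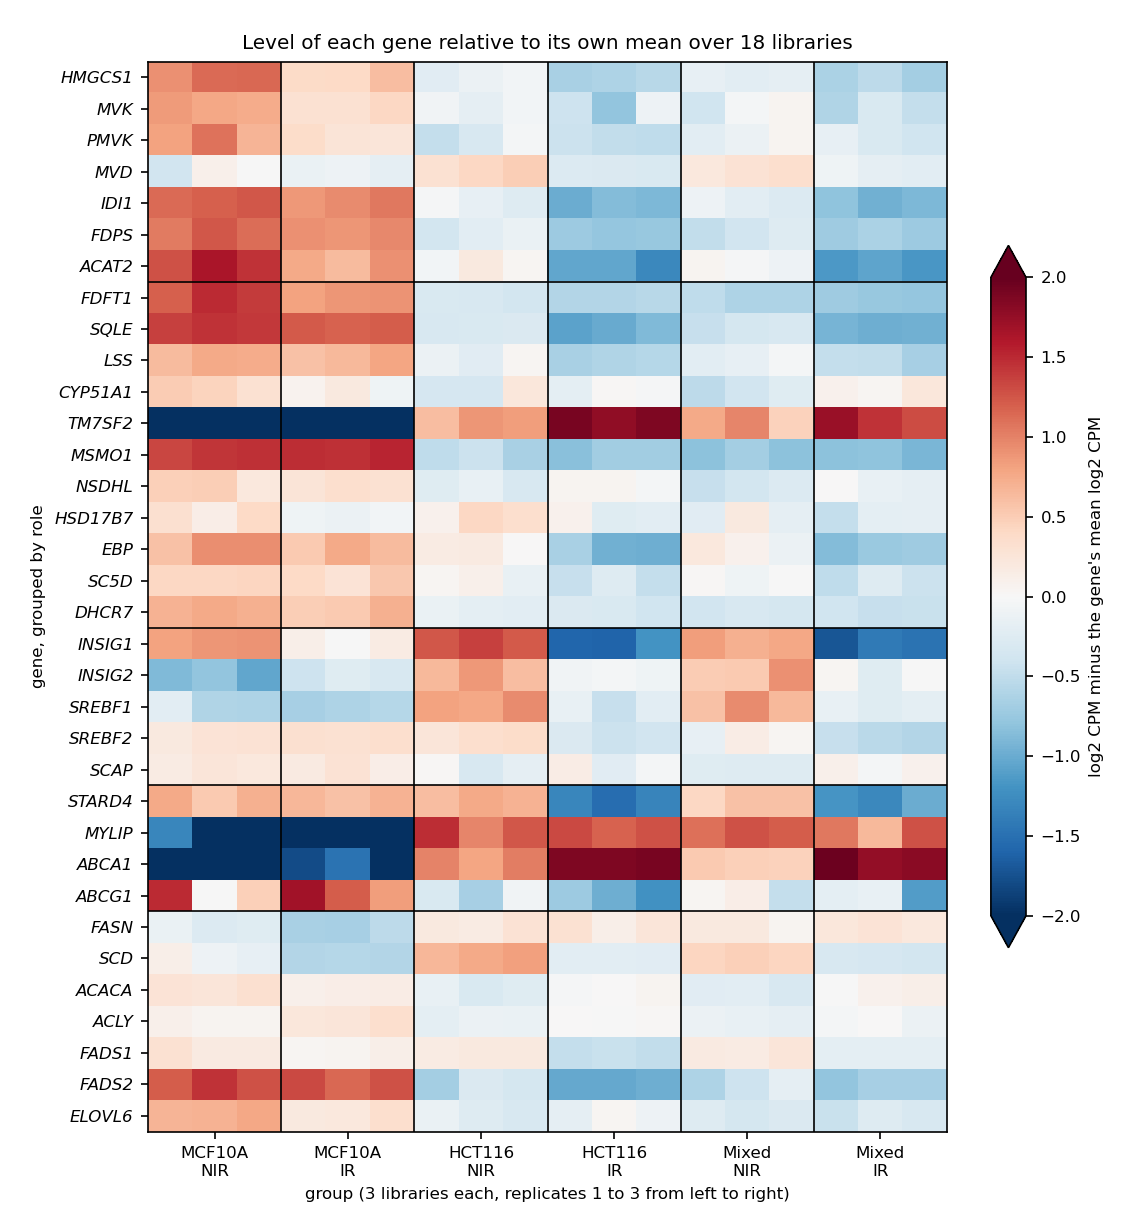
Level of each of the 34 genes (rows, grouped by role) in each of 18 libraries (columns), as log2 CPM minus the gene's own mean over the libraries; values beyond 2 in either direction have the end colour. INSIG1 and STARD4 are lowest in the irradiated HCT116 and mixed libraries, most mevalonate and sterol genes are highest in MCF10A, and TM7SF2, MYLIP and ABCA1 are lowest in MCF10A.

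Most of the genes were lower in irradiated than in non-irradiated HCT116. Called here means an adjusted p-value under 0.05 in edgeR's quasi-likelihood test with Benjamini-Hochberg adjustment over all genes tested. Of the 34 genes, 20 (58.8%) were called lower and 6 (17.6%) higher, and 8 were not called. Over all 16857 genes tested, 27.0% were called lower and 25.6% higher. The median log2 fold change of the 34 genes was -0.42, and that of all genes was 0.01. The proliferation marker MKI67 fell from 1164, 1028 and 1070 CPM to 293.8, 304.9 and 308.3 CPM in the same libraries, and its part in these results was not tested.

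The SREBP control genes held the largest fall. INSIG1, whose protein retains SCAP in the endoplasmic reticulum and which is itself a target of SREBP, lies at chr7:155297878-155310235 (GRCh38.p14). It was at 73.9, 80.2 and 72.8 CPM in HCT116 NIR and at 10.4, 10.3 and 13.6 CPM in HCT116 IR. Each irradiated library was thus far below each non-irradiated one, at a log2 fold change of -2.72 (SE 0.097, adjusted p = 7.5e-16). INSIG2, the second INSIG protein, fell from 77.3 ± 7.32 to 45.0 ± 0.514 CPM (SD, n = 3 each; log2 fold change -0.77, adjusted p = 9e-09). The genes of the transcription factors fell as well. SREBF1, which encodes the isoforms linked mainly to fatty acid genes, was at 143.3, 139.5 and 158 CPM without and at 73.5, 59.3 and 71.1 CPM with irradiation (log2 fold change -1.10, SE 0.076, adjusted p = 4.4e-11). SREBF2, linked mainly to cholesterol genes and shown above with its sterol regulatory element core, was at 168.5, 180.1 and 184 CPM without and at 117.6, 106 and 109.4 CPM with irradiation (log2 fold change -0.67, SE 0.063, adjusted p = 7.2e-09). In both genes all 3 irradiated libraries lay below all 3 non-irradiated ones. SCAP, the escort protein, was not called, at a log2 fold change of 0.13 with a 95% interval from -0.06 to 0.32.

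Of the 4 transport and LXR genes, STARD4 fell and ABCA1 rose. STARD4, a carrier that moves cholesterol between membranes, lies at chr5:111496033-111512535 (GRCh38.p14). It was at 78.1, 86.2 and 81.9 CPM in HCT116 NIR and at 20.6, 17.7 and 20.3 CPM in HCT116 IR (log2 fold change -2.06, SE 0.081, adjusted p = 3.7e-15), the second largest fall of the 34 genes. ABCA1, which exports cholesterol to lipid-poor apolipoproteins, was at 12.8, 11.2 and 13.1 CPM without and at 23.7, 23.7 and 24.1 CPM with irradiation (log2 fold change 0.95, SE 0.104, adjusted p = 6.9e-08). The other two LXR targets did not move with ABCA1. MYLIP, which directs lipoprotein receptors to degradation, was at 18.1 ± 3.13 and 18.3 ± 0.994 CPM (SD, n = 3 each; log2 fold change 0.02, 95% interval -0.22 to 0.26). ABCG1, an exporter to high-density lipoprotein, was counted at only 2.00 ± 0.403 and 1.30 ± 0.219 CPM (SD, n = 3 each; log2 fold change -0.61, adjusted p = 0.12).

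**Figure D2:**
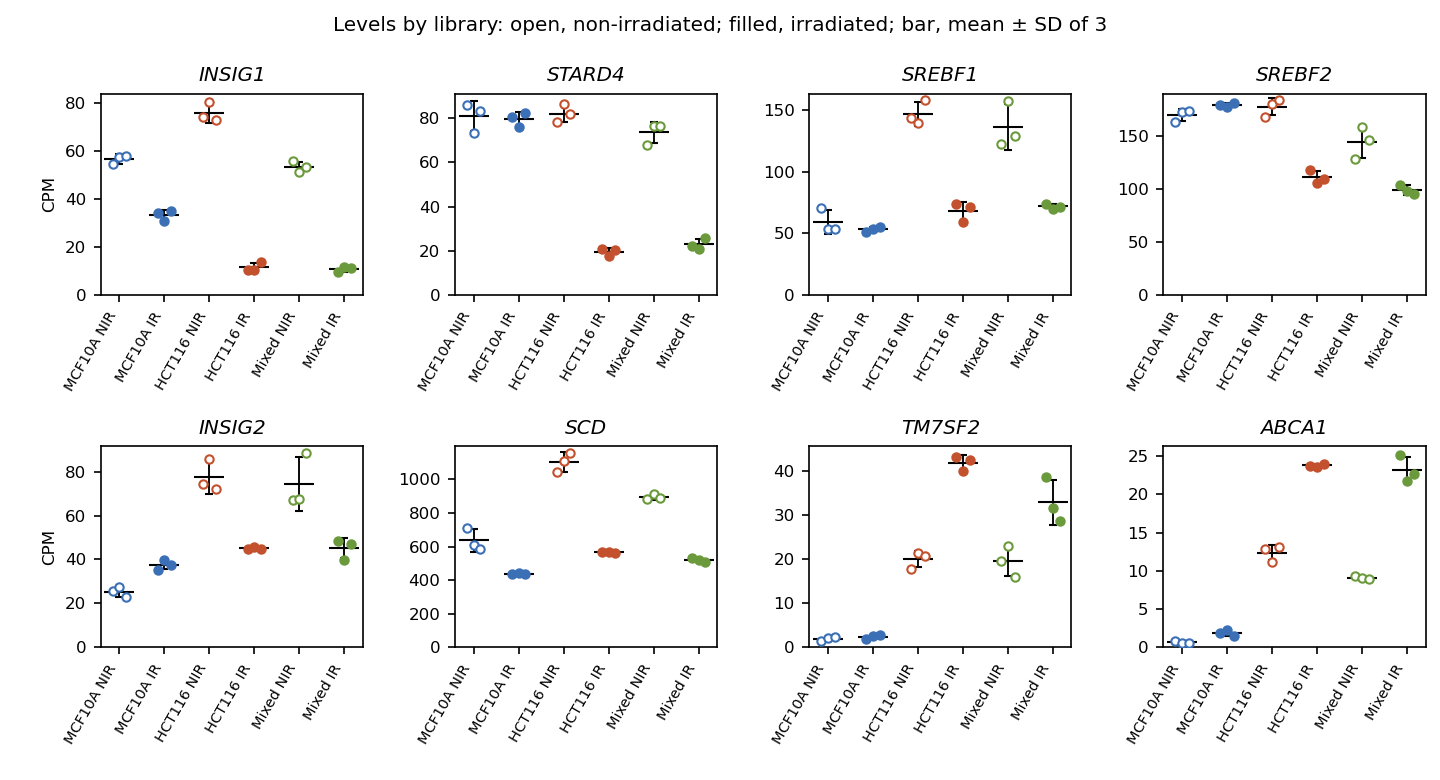
CPM of 8 genes in each library (points, linear axes from 0) with the mean ± SD of the 3 libraries of each group. INSIG1 and STARD4 fall in irradiated HCT116 and mixed cultures, STARD4 and SREBF2 sit at similar levels with and without irradiation in MCF10A, INSIG2 moves up in MCF10A and down in HCT116, and TM7SF2 and ABCA1 are higher in irradiated HCT116 and mixed libraries.

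Among the mevalonate and isoprenoid genes 5 of 7 were lower in irradiated HCT116 and none higher. ACAT2, the cytosolic thiolase that joins acetyl-CoA units, fell from 25.4 ± 2.19 to 11.2 ± 1.10 CPM (SD, n = 3 each; log2 fold change -1.17, SE 0.111, adjusted p = 8.3e-09). HMGCS1, the next enzyme, was at 80.9, 87.7 and 91.1 CPM without and 60.7, 62.1 and 64.5 CPM with irradiation (log2 fold change -0.46, adjusted p = 5.1e-06). IDI1, the isopentenyl diphosphate isomerase, was at 68.9, 62.1 and 57.96 CPM and then at 35.1, 38.3 and 37.4 CPM (log2 fold change -0.76, adjusted p = 2.2e-08). The irradiated libraries lay below the others in all 3 genes. MVD, which makes isopentenyl diphosphate, fell by 0.68 on the log2 scale, and FDPS, which makes farnesyl diphosphate, fell by 0.50. The kinases MVK and PMVK were not called, at -0.31 (95% interval -0.60 to -0.01) and -0.19 (95% interval -0.44 to 0.06).

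Of the 11 genes between squalene and the sterols, 7 fell and 2 rose. SQLE, the squalene epoxidase, was at 90.3, 90.9 and 92.1 CPM in HCT116 NIR and at 53.7, 56.4 and 61.4 CPM in HCT116 IR (log2 fold change -0.66, SE 0.067, adjusted p = 1.9e-08). EBP, the sterol isomerase, fell by 0.95, LSS, which closes the sterol rings, by 0.50, and SC5D, the C5 desaturase, by 0.38 on the log2 scale. HSD17B7 changed by -0.39, FDFT1, the squalene synthase, by -0.23 and MSMO1, a C4 demethylation enzyme, by -0.21. The call of MSMO1 was lost without HCT116 NIR replicate 2 or IR replicate 1, and that of HSD17B7 without NIR replicate 2. The libraries of HSD17B7 overlapped between the groups. TM7SF2, a sterol C14 reductase, went the other way, from 17.9, 21.4 and 20.8 CPM to 43.3, 39.99 and 42.5 CPM (log2 fold change 1.07, SE 0.091, adjusted p = 1.4e-09). Its groups did not overlap, which the rule for naming the largest changes required. NSDHL, which acts beside MSMO1, rose from 21.7, 23.2 and 20.7 to 26.7, 26.8 and 24.98 CPM (log2 fold change 0.27, adjusted p = 0.017), a call lost without any 1 of 4 libraries (NIR replicates 1 and 3, IR replicates 1 and 2). CYP51A1 and DHCR7, the C14 demethylase and the last reductase, were not called, at 0.08 (95% interval -0.27 to 0.44) and -0.15 (95% interval -0.29 to 0.00).

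Of the 7 fatty acid genes 3 fell and 3 rose. SCD, which introduces the first double bond into saturated fatty acids, was at 1041, 1107 and 1159 CPM in HCT116 NIR and at 565.3, 566.7 and 563.6 CPM in HCT116 IR (log2 fold change -0.95, SE 0.056, adjusted p = 3.2e-12). FADS1 and FADS2, the desaturases of polyunsaturated fatty acids, also fell. FADS1 was at 86.9, 89.7 and 88.9 CPM and then at 55.7, 57.5 and 55.2 CPM (log2 fold change -0.65, adjusted p = 1.5e-08). FADS2 was at 10.7, 13.9 and 13.4 CPM and then at 8.44, 8.45 and 8.66 CPM (log2 fold change -0.56, adjusted p = 0.0012). All 3 of these genes were lower in each irradiated library. FASN, the fatty acid synthase, was at 747.6, 728.1 and 797.5 CPM without and 802.8, 708.8 and 770.5 CPM with irradiation (log2 fold change 0.02, 95% interval -0.11 to 0.14). ACACA, the acetyl-CoA carboxylase, rose by 0.25 (adjusted p = 0.00077) and ACLY, which supplies cytosolic acetyl-CoA, by 0.16 (adjusted p = 0.016, lost without NIR replicate 1 or IR replicate 3). ELOVL6, which elongates palmitate, was higher by 0.17 (adjusted p = 0.044), but its libraries overlapped and the call was lost under 7 of 15 alternatives.

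**Figure D3:**
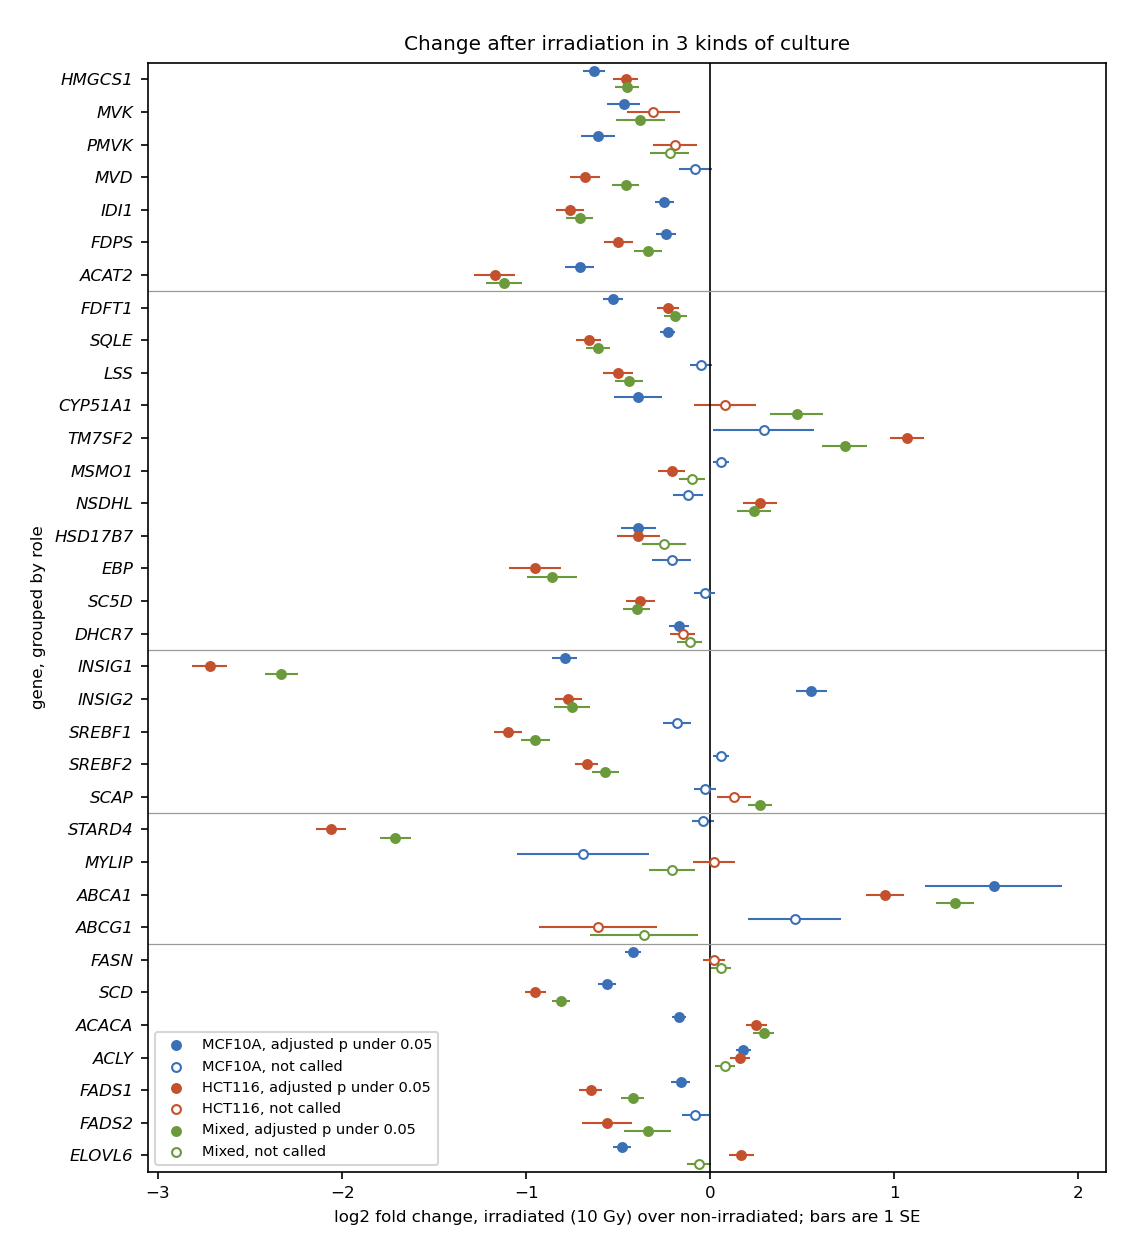
Log2 fold change of irradiated over non-irradiated cultures for the 34 genes by role, in MCF10A, HCT116 and mixed cultures; bars are 1 SE, filled points were called at an adjusted p under 0.05 and open points were not. INSIG1 (-2.72) and STARD4 (-2.06) stand farthest to the left in HCT116, while STARD4 in MCF10A is at -0.04.

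In irradiated MCF10A many of the genes were lower too. Of the 34 genes, 17 (50.0%) were called lower and 3 (8.82%) higher, and 14 were not called, while 29.2% of all 15154 genes tested were called lower and 26.2% higher. The median of the 34 genes was -0.17, against 0.00 for all genes. With upper-quartile factors 57.5% of the called genes were higher, against 47.4% with TMM factors. Of the 34 genes, 13 were then called lower and 5 higher. MKI67 fell here as well, from 677.1 ± 19.9 to 230.8 ± 9.12 CPM (SD, n = 3 each). The largest called falls were in INSIG1, ACAT2 and HMGCS1. INSIG1 was at 54.4, 57.2 and 57.9 CPM in MCF10A NIR and at 33.9, 30.9 and 34.9 CPM in MCF10A IR (log2 fold change -0.79, SE 0.068, adjusted p = 8.8e-11). ACAT2 went from 58.6, 75.7 and 66.2 CPM to 41.2, 37.6 and 45.6 CPM (log2 fold change -0.71, adjusted p = 1.5e-08). HMGCS1 went from 179.6, 208.2 and 210.5 CPM to 123.2, 124.4 and 145.2 CPM (log2 fold change -0.63, adjusted p = 7.2e-10). None of these genes overlapped between the groups, which the rule for naming the largest changes required.

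Of the 7 mevalonate and isoprenoid genes 6 were lower in MCF10A, ACAT2 and HMGCS1 among them. PMVK fell by 0.61, MVK by 0.47, IDI1 by 0.25 and FDPS by 0.24 on the log2 scale, and MVD was not called (-0.08, 95% interval -0.27 to 0.11). Of the 11 sterol genes 5 were lower: FDFT1 (-0.53), CYP51A1 (-0.39), HSD17B7 (-0.39), SQLE (-0.23) and DHCR7 (-0.17). The calls of CYP51A1 and DHCR7 were lost under 3 and 2 of 15 alternatives, and the libraries of DHCR7 overlapped. In the fatty acid branch 5 of 7 genes fell. FASN was at 598.7, 541.1 and 550.8 CPM and then at 417.4, 413.1 and 455.1 CPM (log2 fold change -0.42, SE 0.044, adjusted p = 4.1e-09), and SCD was at 710.1, 610.9 and 586.5 CPM and then at 436.3, 442.5 and 437.4 CPM (log2 fold change -0.56, SE 0.049, adjusted p = 1.1e-10). Both were lower in each irradiated library. ELOVL6 fell by 0.48, ACACA by 0.17 and FADS1 by 0.16. The call of ACACA was lost with upper-quartile factors and that of FADS1 under 3 alternatives. FADS2 was not called (-0.08, 95% interval -0.23 to 0.07).

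Most of the control genes and STARD4 were not lower in irradiated MCF10A. STARD4 was at 85.9, 73.1 and 83.4 CPM in MCF10A NIR and at 80.4, 76.2 and 82.5 CPM in MCF10A IR (log2 fold change -0.04, 95% interval -0.16 to 0.08). SREBF2 was at 163.2, 172.4 and 174 CPM and then at 179.1, 177.5 and 180.9 CPM (0.06, 95% interval -0.04 to 0.15, called only under upper-quartile normalization). SREBF1 was at 70.5, 53.8 and 53.7 CPM and then at 51.5, 53.3 and 54.98 CPM (-0.18, adjusted p = 0.054). Its first non-irradiated library stood above the others, and it was called lower under 4 of 15 alternatives. INSIG2 rose from 25.5, 27.4 and 22.99 CPM to 35.4, 39.7 and 37.7 CPM (log2 fold change 0.55, SE 0.082, adjusted p = 1.8e-06). ACLY was also higher, from 393.0 ± 7.55 to 450.5 ± 17.7 CPM (SD, n = 3 each; log2 fold change 0.18, adjusted p = 0.00047). ABCA1 rose by 1.54 (adjusted p = 0.00091), at levels of only 0.823, 0.563 and 0.547 CPM before and 1.87, 2.33 and 1.53 CPM after irradiation. MYLIP (-0.69, 95% interval -1.42 to 0.05) and ABCG1 (0.46, 95% interval -0.06 to 0.98) were at low levels and not called.

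Both lines were also compared directly for whether their responses differed. The difference of the log2 fold changes, HCT116 minus MCF10A, was called for 24 of the 34 genes. It was lower in HCT116 for 18 (52.9%) and higher for 6 (17.6%), where 21.9% and 15.4% of all 18179 genes were. The median of the 34 genes was -0.39, and that of all genes was -0.10, which is the level to read single genes against. Without the mitochondrial and the 10 most abundant genes the median of all genes was 0.00, and 52.6% of the called genes had a higher response in HCT116, against 41.3%. Of the 17 genes called lower in MCF10A and the 20 called lower in HCT116, 10 were shared: ACAT2, FADS1, FDFT1, FDPS, HMGCS1, HSD17B7, IDI1, INSIG1, SCD and SQLE. Shared calls were not counted over all genes, here or for the mixed cultures and the lines below, so such counts only describe the members. ABCA1 and ACLY were called higher in both lines. ACACA, ELOVL6 and INSIG2 were called in opposite directions. Of these, ACACA in MCF10A was not called with upper-quartile factors, and ELOVL6 in HCT116 lost its call under 7 of 15 alternatives.

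STARD4 and INSIG1 had the largest differences between the responses. STARD4 differed by -2.11 (SE 0.101, adjusted p = 4.7e-14) and INSIG1 by -2.02 (SE 0.120, adjusted p = 1.9e-12). INSIG2 differed by -1.40 (adjusted p = 3.2e-10), SREBF1 by -1.01 (adjusted p = 3.9e-07) and SREBF2 by -0.80 (adjusted p = 6.7e-09). These 5 genes kept their call under all alternatives run. SCAP was not called (0.08, 95% interval -0.17 to 0.32), so that 4 of the 5 control genes differed. The enzymes with a lower response in HCT116 were EBP (-0.83), MVD (-0.69), IDI1 (-0.59), FADS1 (-0.56), FADS2 (-0.56), LSS (-0.53), ACAT2 (-0.53), SQLE (-0.52), SCD (-0.48), SC5D (-0.43), MSMO1 (-0.34) and FDPS (-0.34). Without MCF10A IR replicate 3 the calls of ACAT2, SC5D, MSMO1 and FDPS were lost, and FDPS was lost in 4 other fits. The response was higher in HCT116 for TM7SF2 (0.70), ELOVL6 (0.57), FASN (0.35), ACACA (0.34), NSDHL (0.31) and FDFT1 (0.21), of which TM7SF2 was lost without MCF10A NIR replicate 3, and NSDHL and FDFT1 under 7 and 8 alternatives. HMGCS1, which makes HMG-CoA, had a difference of 0.09 (95% interval -0.12 to 0.29). ABCA1 (-0.65, adjusted p = 0.059) was not called, and ABCG1 (-1.14, adjusted p = 0.044) lost its call under 11 alternatives.

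**Figure D4:**
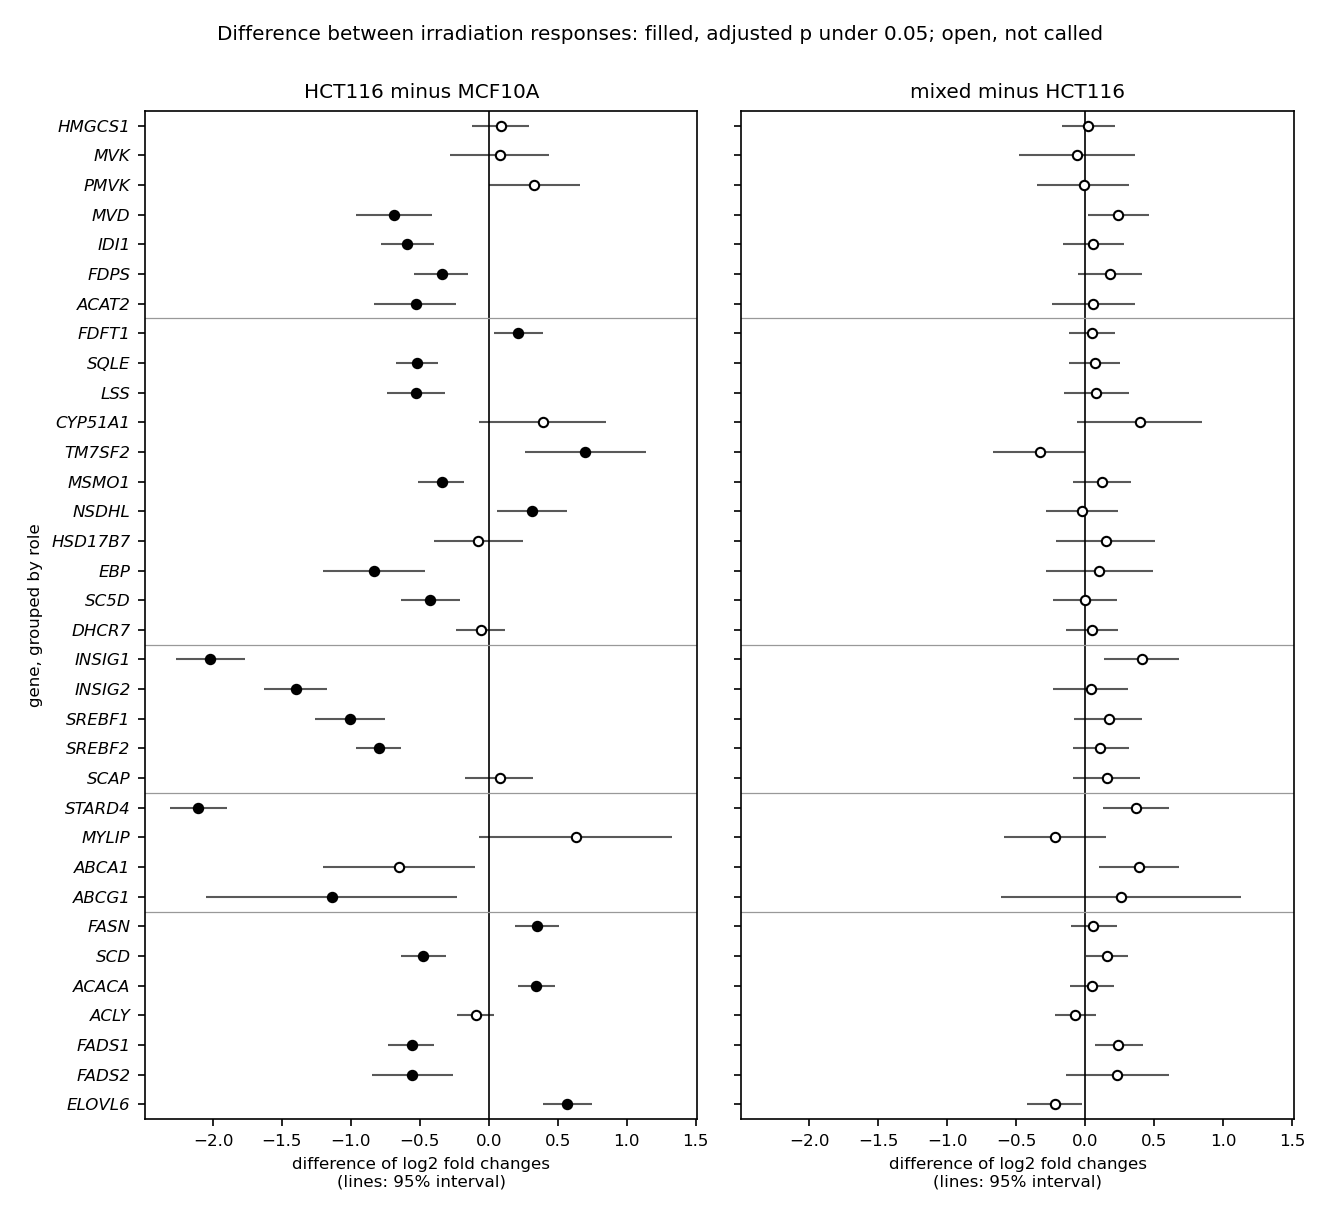
Difference between irradiation responses for each of the 34 genes, HCT116 minus MCF10A on the left and mixed minus HCT116 on the right, with 95% intervals; filled points were called at an adjusted p under 0.05. On the left 24 points are filled, with STARD4 (-2.11) and INSIG1 (-2.02) lowest, and on the right none is filled.

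The mixed cultures, which were mostly HCT116 by RNA, also had most of these genes lower after irradiation. Of the 34 genes, 19 (55.9%) were called lower and 6 (17.6%) higher, against 25.4% and 24.0% of all 16906 genes tested. The median of the 34 genes was -0.35, against 0.01 for all genes. Of the 20 genes lower in HCT116 and the 19 lower in the mixed cultures, 18 were shared, and no gene was called in opposite directions. INSIG1 was at 55.5, 51.2 and 53.1 CPM in mixed NIR and at 9.52, 11.7 and 11.2 CPM in mixed IR (log2 fold change -2.33, adjusted p = 1.7e-14). STARD4 was at 68.0, 76.3 and 76.2 CPM and then at 22.3, 20.8 and 25.6 CPM (log2 fold change -1.71, adjusted p = 5.9e-13). Both genes were separated between the groups by more than their spread. ACAT2 (-1.12), SREBF1 (-0.95), EBP (-0.86), SCD (-0.81), INSIG2 (-0.75), IDI1 (-0.71), SQLE (-0.61) and SREBF2 (-0.57) were also lower. ABCA1 rose from 9.34, 9.06 and 8.92 CPM to 25.1, 21.8 and 22.7 CPM (log2 fold change 1.33, adjusted p = 9e-10). TM7SF2 rose from 19.7, 22.95 and 16.1 CPM to 38.7, 31.6 and 28.7 CPM (log2 fold change 0.73, adjusted p = 3.1e-05). CYP51A1 (0.47), ACACA (0.29), SCAP (0.27) and NSDHL (0.24) completed the genes called higher, and the call of NSDHL was lost under 7 of 15 alternatives.

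The response of the mixed cultures minus that of HCT116 was called for 0 of the 34 genes in edgeR, with 6 higher and 1 lower at an unadjusted p under 0.05, and for 0 in DESeq2. Over all 18072 genes tested, 0.681% were called higher and 0.149% lower in edgeR. At an unadjusted p under 0.05 in edgeR, 7.75% of all genes were higher and 4.82% lower. The 95% interval of this difference lay within a 2-fold change in either direction for 33 of the 34 genes, ABCG1 being the exception (-0.61 to 1.13). For INSIG1 the interval ran from 0.14 to 0.68, for STARD4 from 0.13 to 0.61 and for ABCA1 from 0.10 to 0.68, with adjusted p = 0.17, 0.15 and 0.23 in edgeR.

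Set side by side, mixed and HCT116 cultures differed in few of the genes. Without irradiation 2 of 34 (5.88%) were called lower and 0 higher in the mixed libraries, with 1.15% and 0.887% of all 16455 genes tested. In edgeR 8 were lower and 0 higher at an unadjusted p under 0.05, where 7.25% and 7.13% of all genes were. DESeq2 called 5 lower and 0 higher. INSIG1, at 75.6 ± 3.99 CPM in HCT116 NIR and 53.3 ± 2.18 CPM in mixed NIR (SD, n = 3 each), had a log2 fold change of -0.49 (SE 0.070, adjusted p = 0.0005). SCD, at 1102 ± 58.9 and 895.5 ± 17.1 CPM (SD, n = 3 each), had a log2 fold change of -0.29 (adjusted p = 0.014), and its call was lost without HCT116 NIR replicate 2, HCT116 NIR replicate 3 or mixed NIR replicate 1. SREBF2 (-0.28, adjusted p = 0.059) and FDFT1 (-0.23, adjusted p = 0.058) lay just past the threshold and were called under 8 and 6 alternatives.

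With irradiation 3 of 34 (8.82%) were called lower and 1 (2.94%) higher in the mixed libraries, where 3.48% and 5.08% of all 17137 genes were. FADS1 was higher, at 68.2, 68.2 and 67.9 CPM against 55.7, 57.5 and 55.2 CPM in HCT116 IR (log2 fold change 0.27, SE 0.061, adjusted p = 0.0043). TM7SF2 (-0.35, adjusted p = 0.0096), ELOVL6 (-0.27, adjusted p = 0.0055) and FDFT1 (-0.18, adjusted p = 0.041) were lower. The calls of TM7SF2 and FDFT1 were lost under 3 and 8 of 15 alternatives and that of ELOVL6 without HCT116 IR replicate 2.

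The lines themselves differed widely in these genes before irradiation. Of the 34 genes, 24 (70.6%) were called lower and 9 (26.5%) higher in HCT116 NIR than in MCF10A NIR, against 35.9% and 38.9% of all 16568 genes tested. The median of the 34 genes was -0.73, and that of all genes was 0.05. With upper-quartile factors or library size alone the median of all genes moved to 0.25, and 62.4% or 62.1% of the called genes were higher in HCT116, against 52% with TMM factors. The enzymes of cholesterol synthesis were lower in HCT116. Of the 18 mevalonate, isoprenoid and sterol genes, only MVD (0.29) and TM7SF2 (3.15) were called higher, and HSD17B7 was not called. The call of MVD was lost without MCF10A NIR replicate 1 or HCT116 NIR replicate 3. MSMO1 was at 229.3, 245 and 251.3 CPM in MCF10A NIR and at 64.1, 67.4 and 58.4 CPM in HCT116 NIR (log2 fold change -2.13, SE 0.062, adjusted p = 1.5e-15). SQLE was at 291.4, 308.5 and 301 CPM against 90.3, 90.9 and 92.1 CPM (log2 fold change -1.91, SE 0.053, adjusted p = 6.8e-16). FDFT1 (-1.89), ACAT2 (-1.59), FDPS (-1.56), IDI1 (-1.53) and HMGCS1 (-1.40) followed, each without overlap between the lines.

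In the fatty acid branch FADS2 was at 39.8, 46.3 and 41.1 CPM in MCF10A NIR and at 10.7, 13.9 and 13.4 CPM in HCT116 NIR (log2 fold change -1.94, SE 0.109, adjusted p = 1.6e-11). ELOVL6 (-1.14), ACACA (-0.70), ACLY (-0.41) and FADS1 (-0.23, not called under upper-quartile factors or library size alone) were lower too, while SCD (0.60) and FASN (0.23) were higher in HCT116. The 3 genes highest in HCT116 relative to MCF10A were ABCA1, TM7SF2 and MYLIP. ABCA1 was at 12.4 ± 1.02 CPM in HCT116 NIR and 0.644 ± 0.155 CPM in MCF10A NIR (SD, n = 3 each; log2 fold change 4.06, SE 0.217, adjusted p = 8e-12). MYLIP was at 21.3, 15.1 and 18.0 CPM against 3.09, 1.04 and 1.91 CPM (log2 fold change 2.98, adjusted p = 4.1e-09). TM7SF2 was at 20.1 ± 1.89 against 1.98 ± 0.419 CPM (SD, n = 3 each). ABCG1 went the other way, at 2.02, 1.58 and 2.39 CPM against 7.09, 2.51 and 3.48 CPM (log2 fold change -1.32, adjusted p = 0.0016).

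The control genes were mostly not lower in HCT116 NIR. SREBF1 (1.12, adjusted p = 1.9e-09), INSIG2 (1.42, adjusted p = 4.3e-11) and INSIG1 (0.23, adjusted p = 0.0042) were higher and SCAP was lower (-0.55, adjusted p = 4.7e-06). SREBF2 was at -0.13 (adjusted p = 0.045) and STARD4 at -0.17 (adjusted p = 0.031), and neither was called under upper-quartile factors or library size alone, where SREBF2 was at 0.07 and 0.06. The libraries of SREBF2 and STARD4 overlapped between the lines, as did those of FADS1.

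The lines were compared in the same way after irradiation. HCT116 IR was called lower than MCF10A IR in 27 of 34 genes (79.4%) and higher in 5 (14.7%), against 36.8% and 38.1% of all 16932 genes. The median of the 34 genes was -0.95, against 0.04 for all genes. All 24 genes that were lower in HCT116 NIR were also lower in HCT116 IR, and INSIG1 and MVD passed from higher to lower. Such shared calls were not counted over all genes, so this count only describes the members. STARD4 was at 19.5 ± 1.60 CPM in HCT116 IR and 79.7 ± 3.20 CPM in MCF10A IR (SD, n = 3 each; log2 fold change -2.26, SE 0.074, adjusted p = 8.7e-20). INSIG1 was at -1.78 and SREBF2 at -0.92, while SREBF1 (0.12, 95% interval -0.03 to 0.27) and INSIG2 (0.03, 95% interval -0.12 to 0.18) were no longer called. FADS2 (-2.48), MSMO1 (-2.46), ABCG1 (-2.45) and SQLE (-2.42) were lowest in HCT116, and TM7SF2 (3.86), MYLIP (3.62) and ABCA1 (3.42) highest. With upper-quartile factors or library size alone the median of all genes moved from 0.04 to 0.22 or 0.27 and the share of called genes that were higher from 50.9% to 60.2% or 62.4%, and SREBF1 and INSIG2 were then called higher. The calls of CYP51A1 (-0.35) and HSD17B7 (-0.26) were lost under 9 and 8 of 15 alternatives, and MVD was not called by library size alone. Among the genes called lower, CYP51A1, HSD17B7 and SCAP had libraries that overlapped between the lines.

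**Figure D5:**
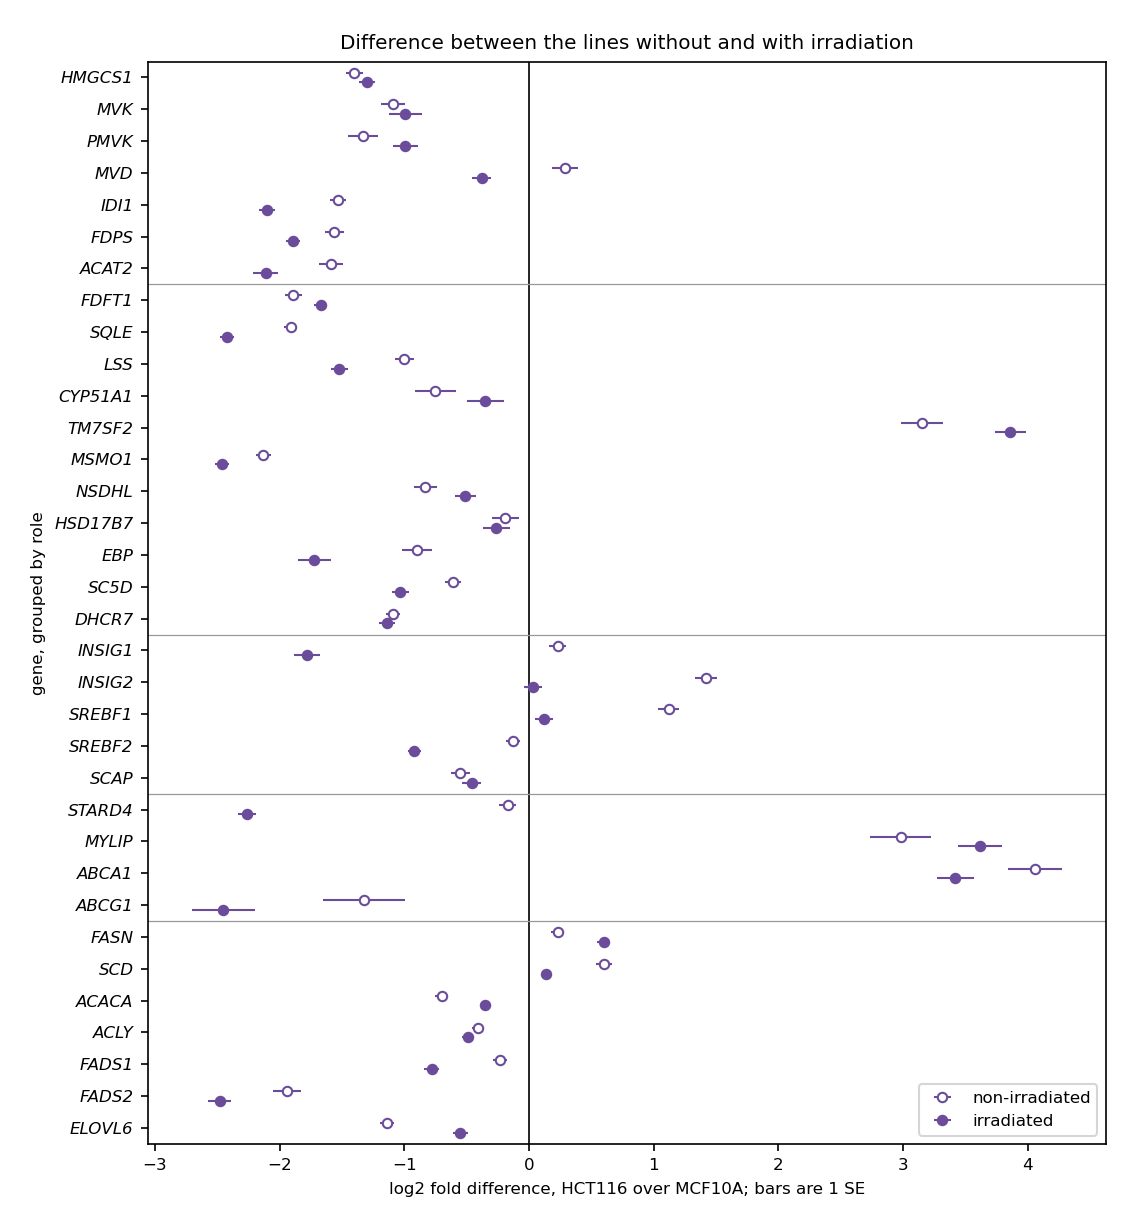
Log2 fold difference of HCT116 over MCF10A for the 34 genes by role, without (open) and with (filled) irradiation; bars are 1 SE. Most synthesis genes are left of 0 in both treatments, TM7SF2, MYLIP and ABCA1 are right of 3 or close to it, and STARD4, INSIG1 and SREBF2 lie near 0 only without irradiation.

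Other genes of the same pathways were read from 6 further lists. The counts of all 6 are to be read against the shares over all genes. These were 27.0% lower and 25.6% higher in irradiated HCT116, and 29.2% lower and 26.2% higher in irradiated MCF10A. Of 16 other SREBP-linked genes 15 could be tested. In irradiated HCT116 6 were called lower and 3 higher (median -0.12), and in irradiated MCF10A 6 lower and 5 higher (median -0.08), where the backgrounds are those given above. ACSL3, which activates long-chain fatty acids, fell from 204.0 ± 9.64 to 63.4 ± 1.07 CPM in HCT116 (SD, n = 3 each; log2 fold change -1.67, adjusted p = 9.6e-16) and by 0.14 on the log2 scale in MCF10A. The difference of these responses was -1.62 (adjusted p = 2.4e-15). LPIN1, a phosphatidate phosphatase, fell by 1.40 and SLC25A1, the mitochondrial citrate carrier, by 0.64 in HCT116. In MCF10A LPIN1 fell by 0.51 and SLC25A1 rose by 0.13 (adjusted p = 0.04), and CYB5B fell by 0.29. PCYT2 rose by 0.41 in HCT116 and GPAM by 0.26 in MCF10A. TMEM97 fell by 1.14 in MCF10A and was not called in HCT116 (-0.08, adjusted p = 0.38). AACS and ME1, which make acetoacetyl-CoA and NADPH, rose in both lines, by 0.54 and 0.52 in HCT116 and by 0.42 and 0.31 in MCF10A.

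The 13 genes of SREBP processing and its partner factors had 5 lower and 3 higher in irradiated HCT116 (median -0.13) and 9 lower and 3 higher in irradiated MCF10A (median -0.29). NFYB, a subunit of the factor that binds CCAAT, fell by 0.68 in HCT116 and 0.80 in MCF10A. SP1, a factor that binds GC-rich boxes, fell by 0.65 in HCT116 and 0.41 in MCF10A. ERLIN1 fell by 0.41 in HCT116 and 0.43 in MCF10A, and PAQR3 by 0.54 in MCF10A. SPRING1 rose by 0.38 in HCT116 and 0.18 in MCF10A. The site-1 protease gene MBTPS1 rose by 0.20 in HCT116 and 0.12 in MCF10A. Of the 11 genes that use isoprenoids, 3 were lower and 4 higher in HCT116 (median 0.07) and 5 lower and 3 higher in MCF10A (median -0.12), with COQ2, an enzyme of ubiquinone synthesis, at -0.75 and -1.01. RABGGTB fell by 0.45 in HCT116 and 0.60 in MCF10A, NUS1 by 0.15 in HCT116 and PDSS1 by 0.73 in MCF10A. RABGGTA rose by 0.75 and 0.25, DHDDS by 0.57 and 0.63, and FNTA by 0.30 and 0.19 in HCT116 and MCF10A.

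Among 16 other elongation and desaturation genes, 15 were tested in HCT116, where 6 were lower and 6 higher (median -0.17), and 14 in MCF10A, where 3 were lower and 6 higher (median 0.14). ACACB, the mitochondrial form of acetyl-CoA carboxylase, fell by 1.32 and TECR, an enoyl reductase of elongation, by 0.95 in HCT116. FADS3 rose in both lines, by 0.90 in HCT116 and 1.39 in MCF10A, as did the desaturase SCD5, by 0.33 and 0.65. HACD2 fell by 0.52 and ELOVL1 rose by 0.39 in HCT116. In MCF10A HACD3 (-0.33), TECR (-0.31) and MCAT (-0.26) fell and ELOVL4 rose by 0.68. Of 19 genes of LXR response and sterol handling, 18 were tested in HCT116 with 3 lower and 4 higher (median 0.02), and 16 in MCF10A with 5 lower and 4 higher (median 0.03). SCARB1, a lipoprotein receptor, rose by 0.68 and LPCAT3, an LXR target that remodels phospholipids, by 0.61 in HCT116. The LXR gene NR1H2 rose by 0.35 there. GRAMD1B and GRAMD1C, which carry sterol from the plasma membrane, fell by 0.93 and 0.87 in HCT116, and GRAMD1B fell by 0.65 in MCF10A. LRP8 (-0.69) and NPC2 (-0.44) also fell in MCF10A, where OSBP (0.37) and LIPA (0.36) rose. Of 10 genes of fatty acid oxidation, 3 were lower and 3 higher in HCT116 (median 0.04) and 3 lower and 5 higher in MCF10A (median 0.10). ACAA2, the last thiolase of mitochondrial oxidation, fell from 24.8 ± 1.77 to 7.31 ± 0.971 CPM in HCT116 (SD, n = 3 each; log2 fold change -1.75, adjusted p = 3.2e-11), and was not called in MCF10A (-0.01, adjusted p = 0.9). ECI1 (-0.89) and ACADM (-0.34) also fell in HCT116, where CPT2 (0.39) and HADHB (0.36) rose. In MCF10A EHHADH (-0.41), ACADM (-0.29) and CPT1A (-0.19) fell, and ACADVL (0.52) and CPT2 (0.25) rose.

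Some of the 34 genes share exonic sequence with neighbours in the GENCODE annotation, and whether reads were counted by strand is not given in the sources used here. ACAT2 shares 26.5% of its exonic bases with SOD2 on the opposite strand, and SOD2 rose in irradiated HCT116 (0.17) and MCF10A (0.27), so ACAT2 and SOD2 moved in opposite directions there. Between the lines both were lower in HCT116, SOD2 by a log2 fold change of -3.20 without and -3.37 with irradiation and ACAT2 by -1.59 and -2.11, and the part of the shared sequence in that difference was not tested. The largest share was that of ACAT2 with SOD2-OT1 (33.9%), which had too few counts for a test after irradiation. ACAT2 also shares 9.23% with TCP1, which fell by 0.34 in HCT116 and 0.62 in MCF10A. FDPS shares 18.6% with RUSC1-AS1, which fell by 0.59 in HCT116, and IDI1 shares 14.8% with IDI2-AS1, which was not called in either line. SREBF1 shares 6.92% with RAI1, and the remaining overlaps were smaller. FDPS, HSD17B7 and SCD are known to have pseudogene copies, and how reads were split between copies was not tested.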

How the data were processed

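RNA-seq counts per gene symbol were deposited for 18 libraries, 3 in each of 6 groups. Per the labels' protocols, RNA was extracted with TriZol and libraries were made with a stranded, poly(A)-selecting kit. The submitters' processing notes name fastp, STAR, featureCounts and GRCh38, without versions, and the strand setting is not given in the sources used here. Of the deposited counts from 1 to 10, 68.3% were even numbers, and fits with halved counts were run as an alternative. The 10180 symbols with no count in any library stayed out of the tests.

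Each comparison was fitted to its own libraries in edgeR 4.0.16 (R 4.3.3) with TMM factors, filterByExpr and the 2-sided quasi-likelihood test, and p-values were adjusted by Benjamini-Hochberg over all genes tested. Responses were compared by an interaction term. Intervals are 95% and follow from the fit's SE. The MCF10A share of mixed RNA used genes of at least 20 CPM in 1 line and at most 1 CPM in the other. On simulated counts the test recovered 45 of 50 genes changed 1.5-fold and 50 of 50 changed 2-fold in MCF10A (of 14479 others, 9 were called), 42 of 50 and 50 of 50 in HCT116, and 184 of 200 2-fold response differences. Each simulation set such changes in 200 genes, up and down alike, and gave all genes 1 dispersion. In the data 8395 of 15154 genes were called in MCF10A, so these rates need not carry over.

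Values by library were given for a fixed set of members (INSIG1, HMGCS1, IDI1, SQLE, SREBF1, SREBF2, FASN, SCD, FADS1, FADS2, MYLIP, ABCA1 and ABCG1). To these each comparison added up to 3 members in each direction with the largest called change, a mean of 10 CPM or more on the higher side and groups that did not overlap. Lack of overlap was thus a condition for naming the added members and is no further result about them. Of each other list, up to 3 called genes in each direction were named by size of change, at the same minimum. The members and lists were chosen with earlier results of these data known. Alternatives were other normalizations, no filter, DESeq2 1.42.0, halved counts, a replicate block, all 6 groups in 1 fit, a fit without mitochondrial and the 10 most abundant genes, and leaving out each library. Some genes of the other lists and a detail of a line's genotype are not reported here.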

Additional observations from a re-analysis of the deposited data

Results flagged for a closer look

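For 24 of the 34 genes the response to irradiation differed between HCT116 and MCF10A by the interaction test in edgeR, 18 lower and 6 higher in HCT116, where 21.9% and 15.4% of all genes tested were. The log2 differences below 0 were those of STARD4 (-2.11), INSIG1 (-2.02), INSIG2 (-1.40), ABCG1 (-1.14), SREBF1 (-1.01), EBP (-0.83), SREBF2 (-0.80), MVD (-0.69), IDI1 (-0.59), FADS1 (-0.56), FADS2 (-0.56), ACAT2 (-0.53), LSS (-0.53), SQLE (-0.52), SCD (-0.48), SC5D (-0.43), MSMO1 (-0.34) and FDPS (-0.34). Those above 0 were of FDFT1 (0.21), NSDHL (0.31), ACACA (0.34), FASN (0.35), ELOVL6 (0.57) and TM7SF2 (0.70). Over 21 alternatives the calls of ABCG1, FDFT1, NSDHL and FDPS were lost under 11, 8, 7 and 5. TM7SF2 lost its call without MCF10A NIR replicate 3, and ACAT2, SC5D and MSMO1 without MCF10A IR replicate 3. The other genes kept theirs.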

How the results depend on the processing

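Over 139 values for single genes, 2186 of 2265 refits kept a called gene called in the same direction or left an uncalled gene uncalled. The direction of uncalled genes was not part of this count. SREBF2 in HCT116 NIR against MCF10A NIR (-0.13) was at 0.07 with upper-quartile factors and at 0.06 with library size alone, and was not called there. In irradiated MCF10A 5 members were called higher and 13 lower with upper-quartile factors, against 3 and 17. CYP51A1, DHCR7, ACACA and FADS1 lost their lower call there. Members called lower in mixed NIR against HCT116 NIR were 2 as reported, 4 with upper-quartile factors, library size alone, halved counts or the replicate block, and 5 in DESeq2 or with all 6 groups in 1 fit. In mixed IR against HCT116 IR they were 3 as reported, 5 with the replicate block and 1 with all 6 groups. The causes were not tested. Markers of at least 50 CPM put the MCF10A share of the mixed libraries at 0.345% (NIR) and 1.07% (IR).

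Leaving out each library in turn gave 1 to 3 (mixed NIR) and 1 to 4 (mixed IR) lower members in these comparisons with HCT116. The count of 1 came without HCT116 NIR replicate 2 or 3 or mixed NIR replicate 1, and without HCT116 IR replicate 2 or mixed IR replicate 2 or 3. Members higher and lower after irradiation ranged over 3 to 4 and 15 to 19 in MCF10A, 4 to 5 and 18 to 21 in HCT116, and 4 to 6 and 17 to 21 in mixed cultures. Between the lines they ranged over 8 to 9 and 22 to 24 without irradiation and 4 to 6 and 25 to 26 with it. For the response difference they ranged over 4 to 7 and 14 to 19. The share ranged from 0.419% to 0.471% (NIR) and from 1.22% to 1.28% (IR). To look for pairing, each gene's group mean was subtracted from its log2 CPM. Correlations of what remained between same-numbered libraries ran from -0.042 to 0.108 over 15 pairs of groups. The highest was between HCT116 NIR and mixed NIR, where the lowest was 0.006. In no pair of groups were all above 0.1, the level set for pairing, and in 0 of 15 did every library correlate best with its own number. The block raised the calls over all genes from 335 to 716 in mixed NIR against HCT116 NIR and from 1467 to 2220 in mixed IR against HCT116 IR.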
